A study of Mus musculus with 8 samples.

Results

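The genes described here are 9 genes through which endothelial cells start, restrain or clear a blood clot: Vwf, F8, F3, Thbd, Procr, Tfpi, Plat, Plau and Thbs1. They were chosen by gene symbol as coagulation, anticoagulant or fibrinolysis genes, and all 9 are among the 20057 genes of the deposited table. Tumor endothelial cells were sorted by FACS as live cells that lacked CD45, a leukocyte marker, and carried CD31, an endothelial marker, and each library was made from 10 ng of RNA. The cells came from B16.F10 melanomas, a mouse melanoma line implanted under the skin of male C57BL/6 mice aged 8 weeks. Mice received 30 µg of agonistic CD40 mAb (FGK4.5) or 30 µg of rat IgG2a isotype control (2A3) next to the tumor on days 13 and 16, and the labels place the sort 1 day later, on day 17, while the study's methods also name 4 days after the last injection. There were 4 libraries a group, 1 for each tumor and mouse, called 5N, 6L, 6R and 10N with agonistic CD40 mAb and 5L, 7N, 8N and 9L with isotype control. The question is whether CD40-stimulating immunotherapy shifted the clotting balance of the tumor vessel wall at the level of mRNA.

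Resting endothelium keeps blood fluid, and inflamed endothelium can turn to promoting clots. Clotting starts when factor VII meets tissue factor, encoded by F3, and Tfpi blocks that complex. Thrombin bound to thrombomodulin (Thbd) no longer forms fibrin but activates protein C, which the endothelial protein C receptor (Procr) presents to it, and activated protein C then shuts off the cofactors V and VIII. Vwf tethers platelets to injured wall and carries F8, the cofactor VIII, in plasma. The proteases tPA (Plat) and uPA (Plau) turn plasminogen into plasmin, which dissolves fibrin, and Thbs1 encodes thrombospondin 1, an adhesive glycoprotein that is also an inhibitor of angiogenesis.

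Values are normalized reads, the authors' gene counts divided by a size factor for each library. Where a pair of group means ± SD is given, in this unit, agonistic CD40 mAb comes first. The p-values set the difference between groups against the spread between libraries, each from another mouse. That spread also holds differences between libraries in depth and in the cells sorted. The recovered reads on genes ran from 12512772 to 64938728 per library with agonistic CD40 mAb and from 2971689 to 35583141 with isotype control, so that a single read stood for 0.118 (5N) to 2.44 (5L) units. The 3 shallowest libraries, 5L, 7N and 8N, are all isotype controls, and depth and treatment cannot be fully told apart. All 12 endothelial markers on a fixed list (Pecam1, Cdh5 and Kdr among them) were above 0 in every library, at summed levels of 50926 to 72358 with agonistic CD40 mAb and 43908 to 61646 with isotype control. Lists of 7 venous, 8 arterial and 6 lymphatic endothelial markers were also read. Of these only Vcam1, on the venous list, passed the threshold, as higher with agonistic CD40 mAb (mean 702 against 431). The sorted RNA also held all 7 melanoma markers (Pmel, Dct and Tyrp1 among them), all 7 fibroblast markers and all 7 mural markers in every library. Melanoma markers summed to between 35745 and 60850 with agonistic CD40 mAb and between 38674 and 93734 with isotype control, the highest in 5L. Fibroblast markers summed to between 121070 and 249838 and between 89132 and 217209, the lowest in 5L. Mural markers summed to between 14530 and 24259 and between 10665 and 35037, the lowest in 5L and the highest in 7N. All 5 red blood cell markers passed the threshold as lower with agonistic CD40 mAb, where 0.239% of all genes tested did. Their sums ran from 276 to 1267 against 852 to 8760 with isotype control, so that the groups overlapped. The lowest adjusted limma p among them was 0.459, for Hbb-bs. The 6 leukocyte markers, Ptprc among them, summed to between 88.1 and 190.1 with agonistic CD40 mAb and between 75.8 and 207 with isotype control. The 9 macrophage markers, all above 0 in every library, summed to between 313 and 522 and between 204 and 479, and 1 of them, Mrc1, passed the threshold as higher with agonistic CD40 mAb. The part of these cells in the results was not tested. Levels below are therefore those of a sorted fraction that is not purely endothelial, and fewer cells of a type and less RNA per cell cannot be told apart in such bulk samples.

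The RefSeq promoter table for GRCm38.p6, the assembly of mm10, held 4 of the 9 genes. F3 and Tfpi are shown because they form the trigger of clotting and its brake. The sequences run 5′ to 3′ on the gene's strand and end at the start of the gene, so that the F3 stretch is chr3:121723287-121723536 on the plus strand and the Tfpi stretch is chr2:84476776-84477009 on the minus strand. Capitals mark the motifs found:
F3: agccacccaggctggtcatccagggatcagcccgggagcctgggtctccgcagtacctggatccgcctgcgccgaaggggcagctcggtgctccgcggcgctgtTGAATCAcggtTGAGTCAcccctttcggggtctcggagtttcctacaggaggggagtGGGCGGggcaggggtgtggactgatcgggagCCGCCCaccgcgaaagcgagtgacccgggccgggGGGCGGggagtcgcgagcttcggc
Tfpi: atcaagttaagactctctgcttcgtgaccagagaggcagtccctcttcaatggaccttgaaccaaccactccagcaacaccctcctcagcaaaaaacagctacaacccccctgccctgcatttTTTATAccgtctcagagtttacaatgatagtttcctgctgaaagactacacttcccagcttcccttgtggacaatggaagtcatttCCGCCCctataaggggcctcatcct
The letters searched, on both strands, were TGANTCA for AP-1, GGGCGG for the GC box, TATAAA for the TATA box, TTCNNNGAA for the IFNγ-activated GAS element, and those of the ISRE of interferon-stimulated genes. F3 held AP-1 letters at 146 and 135 bases before its start, which do not overlap, and 3 GC boxes, of which 1 was on the opposite strand. Tfpi held 1 GC box and 1 set of TATA box letters, both on the opposite strand. Its stretch leaves out 16 of the 250 bases, which lie inside the annotated gene, and a second start of Tfpi in the table, with a GC box of its own, is not shown. Among 32851 promoters of the table, over the 250 bases before the start, 6.75% held the AP-1 letters, 32.7% a GC box, 12.4% the TATA box letters, 7.02% the GAS letters and 2.98% the ISRE letters. A match describes the sequence and does not show that a factor binds there.

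Levels of different genes were compared per kilobase of merged exons in GENCODE M21. Thbs1 stood far above the others at 2912 ± 1202 normalized reads per kilobase (SD over the 8 libraries), and by its total of normalized reads it ranked 18 of all genes in the file. Plau followed at 739 ± 94.7, and neither gene's range over libraries overlapped that of the next. Procr (340 ± 60.5), Thbd (288 ± 54.6), F3 (231 ± 102), Plat (181 ± 45.4) and Tfpi (172 ± 12.9) had ranges that overlapped from each to the next, so that neighbours in this order did not differ beyond the spread over libraries. By this length Tfpi, at 196 at most, lay below Thbd (207 or more) and Procr (242 or more) in every library. Per kilobase of the longest transcript Tfpi (214 to 269) overlapped Thbd (207 to 361) and lay below Procr (305 or more). Vwf came to 84.3 ± 25.1 per kilobase and F8, the least abundant member, to 3.56 ± 1.04. Per kilobase of the longest transcript Vwf came to 153 and overlapped Tfpi at 237, since the merged exons of Vwf span 16064 bases and its longest transcript 8834.

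**Figure D1:**
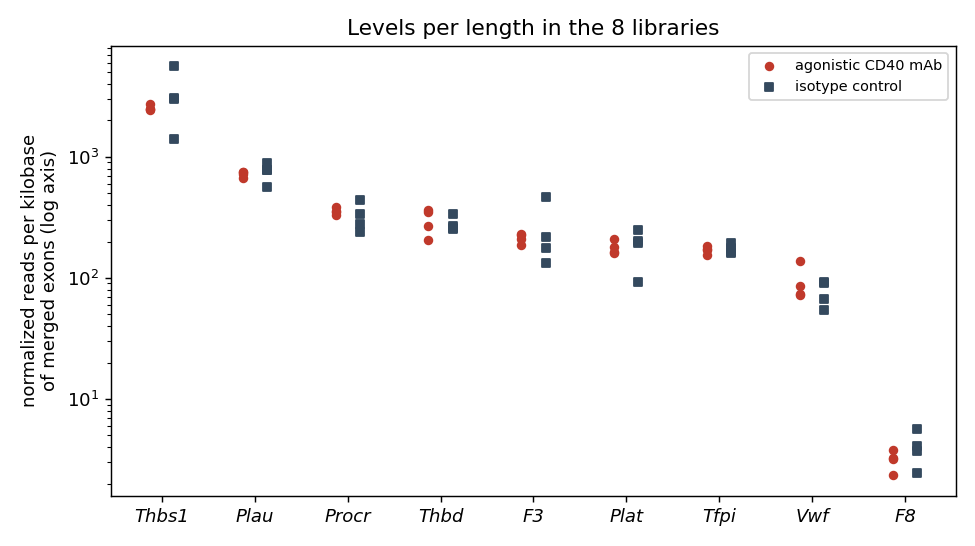
Normalized reads per kilobase of merged exons (vertical log axis) for each of the 9 genes, with 1 point for each library, circles for agonistic CD40 mAb and squares for isotype control. Thbs1 lies highest (mean 2912) and F8 lowest (mean 3.56), and the groups overlap for each gene.

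None of the 9 genes passed the test between treatments. At a ratio of group means of 1.5 either way with an unadjusted limma p of at most 0.05, 0 of the 9 were called, where 1.52% of the 12969 genes tested were, 1.28% higher and 0.239% lower. At an unadjusted p of at most 0.05 alone the count was also 0 with limma, edgeR, DESeq2 and voom, against 2.01% of all genes in limma, and the adjusted limma p was 1.00 for every member, where 0.0154% of all genes had one under 0.05. With limma's library quality weights 2 members, F8 and Plau, had an unadjusted p of at most 0.05 (0.0297 and 0.0484), at log2 fold changes of −0.63 and −0.23, and neither was called, since the call used the ratio of unweighted group means. On the fold of the weighted fit itself, F8 would have been called as lower. The groups of libraries overlapped for all 9, whereas 1.57% of the genes tested had groups that did not overlap. The median log2 fold change of the 9 was −0.03, from −0.29 for F8 to 0.26 for Vwf, beside a median of 0.00 for all genes tested. For every member the 95% interval of limma lay within 2-fold either way, as it did for 81.7% of the genes tested. It lay within 1.5-fold for 4 members, Tfpi, Plau, Thbd and Procr, against 54.0% of the genes tested. A miss of the threshold does not show equal levels, and the intervals given with each gene are the bounds these libraries set.

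**Figure D2:**
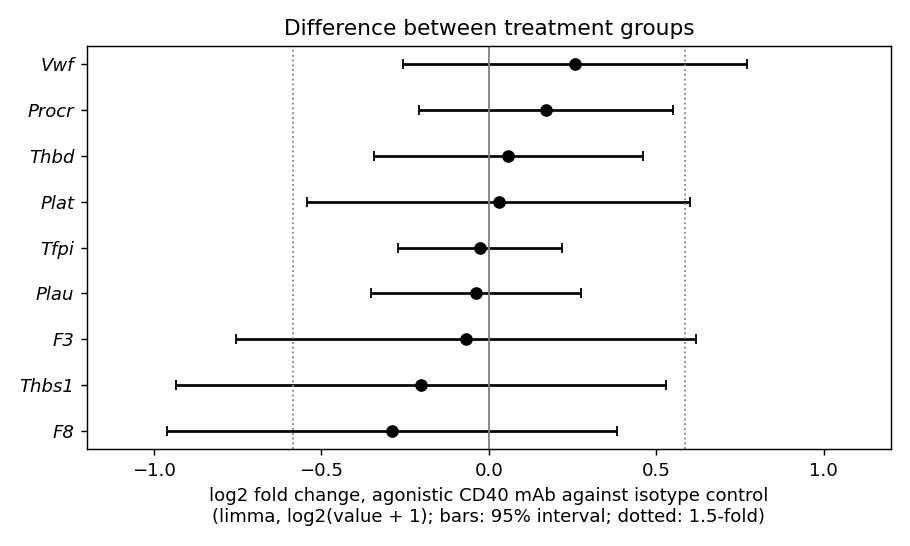
Log2 fold change of agonistic CD40 mAb against isotype control for the 9 genes (horizontal axis, limma on log2(value + 1)), with bars for the 95% interval and dotted lines at 1.5-fold. Every interval spans 0, from the narrow one of Tfpi (−0.27 to 0.22) to the wide one of Thbs1 (−0.93 to 0.53).

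Vwf (chromosome 6, 125546774 to 125686679, plus strand) encodes von Willebrand factor, which endothelial cells store in Weibel-Palade bodies. It was at 1378 normalized reads in 5N, 2206 in 6L, 1163 in 6R and 1183 in 10N with agonistic CD40 mAb, and at 1083 in 5L, 866 in 7N, 1488 in 8N and 1471 in 9L with isotype control. Library 6L stood above all others and 7N below, and the remaining 6 interleaved. The means were 1483 ± 492 and 1227 ± 305 (SD, n = 4 each), and the log2 fold change was 0.26 (95% interval −0.26 to 0.77, exact permutation test p = 0.514). Without 6L the log2 fold change was 0.05. Across the 8 libraries Vwf went with the summed endothelial markers, at a Pearson r of 0.94 on the log2 scale and 0.97 over the 6 libraries without 5L and 7N. With the mural markers its r was 0.06, and 0.43 without 5L and 7N. For the other members the r with the endothelial markers was lower: 0.79 for Procr, 0.58 for Plau, 0.49 for F8, 0.45 for Plat and 0.33 for Thbd. For Thbs1, Tfpi and F3 it was 0.05, −0.05 and −0.21. Without 5L and 7N it was 0.33 for Procr, 0.42 for Plau, 0.61 for F8, 0.82 for Plat and 0.70 for Thbd. For Thbs1, Tfpi and F3 it was then 0.21, 0.34 and −0.51. These are descriptions over 8 values that share the library and its normalization.

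F8 (chromosome X, 75172715 to 75382615, minus strand) had the fewest reads of the members. It had 272, 100, 53 and 40 reads in 5N, 6L, 6R and 10N, which correspond to 32.0, 37.7, 31.9 and 23.2 normalized reads, and 10, 17, 41 and 170 reads in 5L, 7N, 8N and 9L, or 24.4, 40.4, 55.8 and 36.8. Library 8N was highest and 10N and 5L lowest, so that each group held a low library. Group means were 31.2 ± 5.98 and 39.4 ± 12.9 (SD, n = 4 each), and the log2 fold change was −0.29 (95% interval −0.96 to 0.38, exact permutation test p = 0.286). The interval of F8 was among the 3 widest of the 9, after those of Thbs1 and F3. The log2 fold change of F8 was −0.49 without 5L and −0.10 without 8N.

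F3 (chromosome 3, 121723537 to 121735048, plus strand), the trigger of clotting, was at 583, 469, 567 and 528 normalized reads in 5N, 6L, 6R and 10N, and at 335, 1187, 551 and 451 in 5L, 7N, 8N and 9L. Both the lowest and the highest library were isotype controls, 5L and 7N, and all 4 libraries with agonistic CD40 mAb lay between them. Its means were 537 ± 50.6 and 631 ± 381 (SD, n = 4 each), and the log2 fold change was −0.07 (95% interval −0.76 to 0.62, exact permutation test p = 0.914). Without 7N the log2 fold change turned to 0.29.

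Tfpi (chromosome 2, 84432855 to 84476775, minus strand), the inhibitor of the tissue factor complex, was the steadiest member. Its values were 1002, 930, 945 and 849 normalized reads in 5N, 6L, 6R and 10N, and 885, 1068, 957 and 889 in 5L, 7N, 8N and 9L, so that the highest library was 1.26 times the lowest. Means of 932 ± 63.3 and 950 ± 85.7 (SD, n = 4 each) gave a log2 fold change of −0.03, with a 95% interval of −0.27 to 0.22 (exact permutation test p = 0.743). A difference as large as 1.5-fold in Tfpi mRNA lay outside the interval. Tfpi and F3 went together over the 8 libraries, with 7N highest for both, at a Pearson r of 0.80 and a Spearman rho of 0.83, or an r of 0.55 without 5L and 7N. This was not particular to the pair. The r over the 8 libraries was higher for some other pairs of members, such as F3 with Thbs1 (0.91) and Plat with Thbs1 (0.89).

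Thbd (chromosome 2, 148404466 to 148408188, minus strand) encodes thrombomodulin. It was at 1344, 1297, 992 and 772 normalized reads in 5N, 6L, 6R and 10N, and at 943, 1256, 996 and 963 in 5L, 7N, 8N and 9L. The agonistic CD40 mAb group held both the highest and the lowest library. Its means were 1101 ± 269 and 1040 ± 146 (SD, n = 4 each), and the log2 fold change was 0.06 (95% interval −0.34 to 0.46, exact permutation test p = 0.714). Without 5N or without 6L the direction turned, to −0.05 and −0.03.

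Procr (chromosome 2, 155751117 to 155755471, plus strand), the partner of thrombomodulin in protein C activation, was at 678, 783, 710 and 724 normalized reads in 5N, 6L, 6R and 10N, within 1.15-fold of each other. With isotype control it was at 491, 564, 692 and 890 in 5L, 7N, 8N and 9L, a spread of 1.81-fold that enclosed all treated libraries. The means of 724 ± 44.0 and 659 ± 175 (SD, n = 4 each) differed by a log2 fold change of 0.17 (95% interval −0.21 to 0.55, exact permutation test p = 0.457). Without 5L its log2 fold change was 0.04, and without 9L it was 0.33 with an unadjusted limma p of 0.0480, short of the ratio of 1.5. Procr and Thbd, which act together, did not go together over the libraries, at an r of −0.06.

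Plat (chromosome 8, 22757727 to 22782844, plus strand) encodes the plasminogen activator that endothelium releases into blood. It was at 1028, 1298, 1122 and 994 normalized reads in 5N, 6L, 6R and 10N, and at 577, 1546, 1256 and 1225 in 5L, 7N, 8N and 9L. As for F3, isotype controls 5L and 7N were the lowest and highest of all libraries. Group means were 1110 ± 136 and 1151 ± 409 (SD, n = 4 each), a ratio of 0.965, while the log2 fold change was 0.03 (95% interval −0.54 to 0.60, exact permutation test p = 0.886), and without 5L it was −0.27.

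Plau (chromosome 14, 20836660 to 20843385, plus strand), the activator tied to matrix breakdown, was at 1777, 1788, 1586 and 1712 normalized reads in 5N, 6L, 6R and 10N, and at 1339, 1830, 2119 and 1846 in 5L, 7N, 8N and 9L. The 4 libraries with agonistic CD40 mAb were within 1.13-fold of each other and lay inside the isotype range. Means of 1716 ± 92.9 and 1784 ± 325 (SD, n = 4 each) gave a log2 fold change of −0.04, with a 95% interval from 0.783-fold to 1.21-fold (exact permutation test p = 0.686). Without 8N the direction turned, to 0.05, and without 5L the log2 fold change of Plau was −0.17.

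Thbs1 (chromosome 2, 118111876 to 118127133, plus strand) had by far the most reads, 232786 summed over the treated libraries and 117380 over the isotype controls. Its exons overlap those of the unnamed gene Gm29233 on the opposite strand, whose reads could not be told apart if the counting ignored strand. Levels were 16703, 15160, 15177 and 14838 normalized reads in 5N, 6L, 6R and 10N, within 1.13-fold of each other. With isotype control they were 8529 in 5L, 33992 in 7N, 18435 in 8N and 18649 in 9L, so that 7N was 3.99 times 5L. Means were 15470 ± 837 and 19901 ± 10514 (SD, n = 4 each), and the log2 fold change was −0.20 (95% interval −0.93 to 0.53, exact permutation test p = 0.571). This result depended on libraries 5L and 7N. Without 5L, Thbs1 was lower with agonistic CD40 mAb and past the threshold, at a ratio of 0.653 and an unadjusted limma p of 0.0212. Without 7N the ratio was 1.02 and the log2 fold change 0.11.

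**Figure D3:**
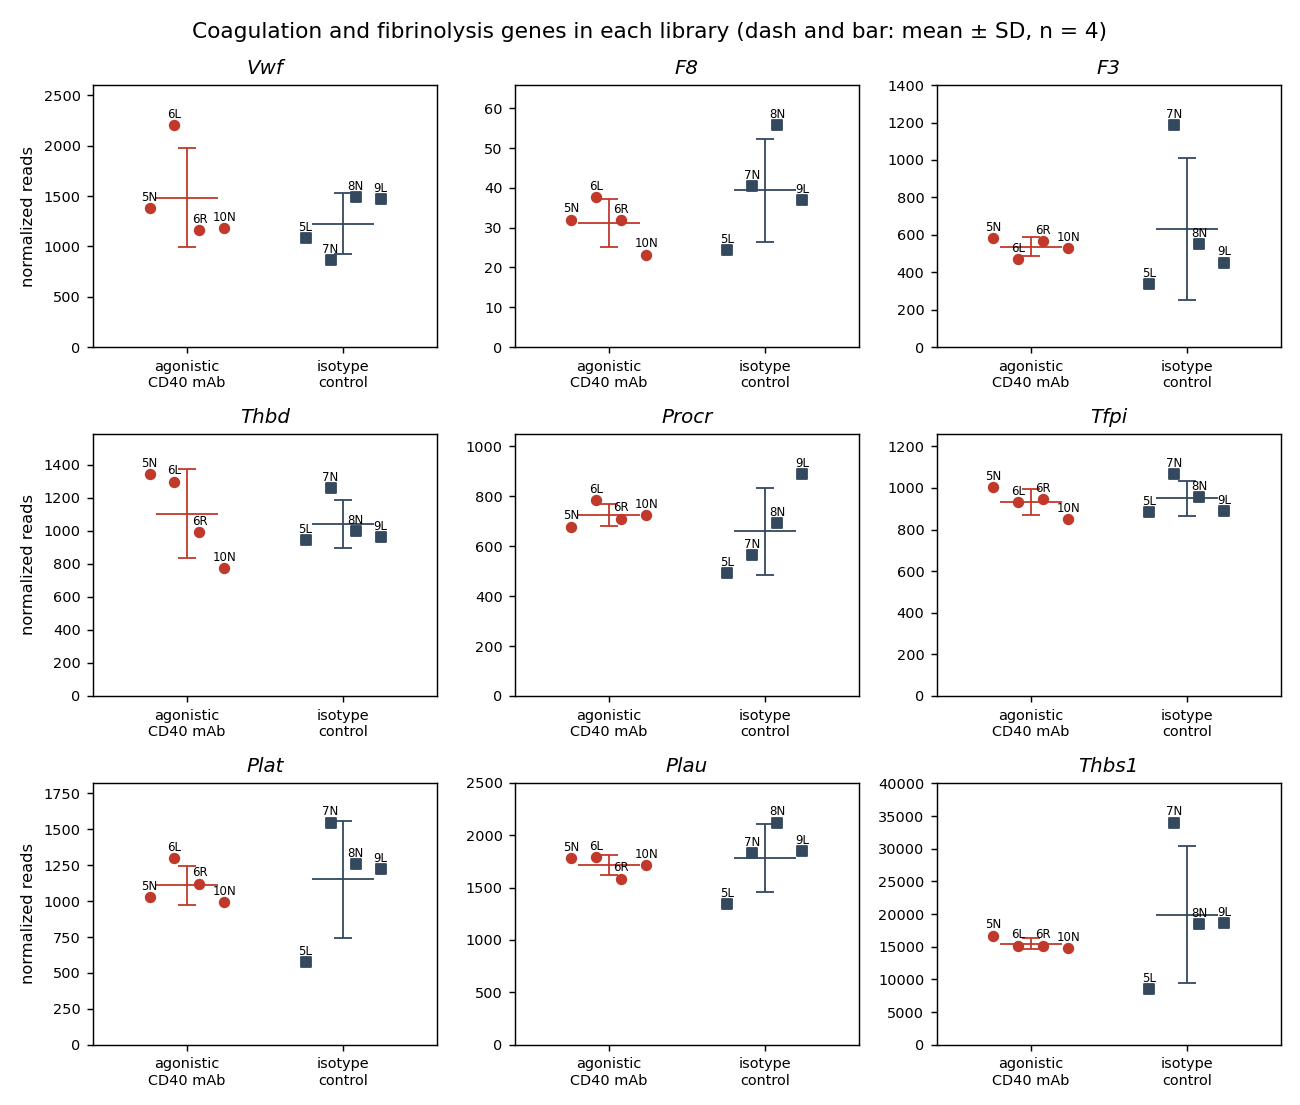
Normalized reads of the 9 genes (vertical axis, from 0) in each library, with circles for agonistic CD40 mAb, squares for isotype control, and a dash and bar for the mean ± SD (n = 4). The groups overlap in every panel, and for F3, Plat and Thbs1 the isotype controls 5L and 7N enclose all other libraries.

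The SD of the log2 values was larger with isotype control for 7 of the 9 genes, all but Vwf and Thbd, a share close to the 71.4% of all genes tested. For Thbs1 it was 0.82 against 0.08, for F3 0.78 against 0.14 and for Plat 0.62 against 0.17. Library 5L was the lowest of all 8 for 5 of the 9 genes, where this held for 29.7% of the genes tested, and 7N the highest for 4, where 26.5% of the genes tested had their highest value. Both held at once for F3, Plat and Thbs1, and for 12.5% of the genes tested. 5L and 7N are the shallowest libraries, with 2971689 and 3446781 reads on genes, and stood at opposite ends, at 137 and 499 reads for F3 and 3490 and 14288 for Thbs1.

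The mural markers (Rgs5, Acta2 and Pdgfrb among the 7) had a sum in 7N that was 3.29 times that in 5L. Over the 8 libraries the Pearson r with the log2 sum of mural markers was 0.94 for Plat, 0.86 for Thbs1, 0.72 for Plau, 0.71 for F8 and 0.67 for F3. For Tfpi, Procr, Thbd and Vwf it was lower, from 0.46 down to 0.06. Without 5L and 7N it was 0.89 for Plat, 0.43 for Thbs1, 0.42 for Plau, 0.64 for F8 and −0.64 for F3, and 0.61 for Procr, 0.43 for Vwf, −0.15 for Thbd and −0.22 for Tfpi. It thus turned for F3, Thbd and Tfpi. With melanoma markers, which were 0.413 times as high in 7N as in 5L, the r of all 9 members was below 0, from −0.87 for Plat, −0.78 for Plau and −0.75 for Thbs1 to −0.42 for Vwf. Without 5L and 7N it turned to 0.47 for F3 and ran from −0.85 for Vwf to −0.27 for Thbs1 for the other 8. Fibroblast markers, 2.44 times as high in 7N as in 5L, had an r of 0.81 with Plau, 0.68 with Plat, 0.68 with Thbs1 and 0.55 with F3, and of 0.12 to 0.43 with the other 5 members. Without 5L and 7N these were 0.49, −0.31, 0.15 and −0.0057, and −0.28 to 0.029 for the other 5. The part of these other cell types in the levels of the members was not tested.

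**Figure D4:**
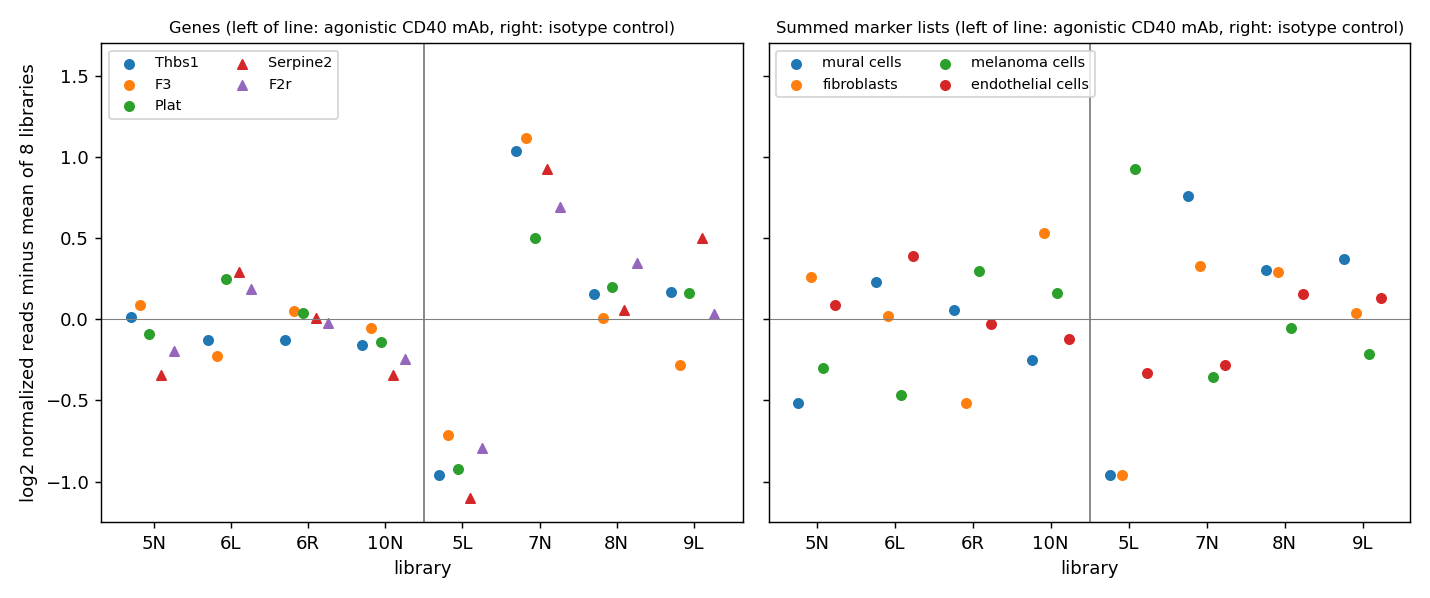
Log2 normalized reads minus the mean of the 8 libraries (vertical axis) in each library, for Thbs1, F3 and Plat (circles) with Serpine2 and F2r (triangles) on the left, and for summed markers of 4 cell types on the right. The 5 genes and the mural sum are lowest in 5L and highest in 7N, and the melanoma sum is highest in 5L.

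Among 10736 other genes with a mean above 50 normalized reads (10737 for F8), those most like each member over the 8 libraries are given as a description. For Vwf they were Bcam (r = 0.96) and Flt4 (r = 0.96), and for Tfpi Mapre1 (0.98) and Tm9sf3 (0.97). Plat was most like Plxdc2 (0.99) and Plce1 (0.99), Thbs1 most like Lrrc42 (0.99) and Copz2 (0.99), and F3 most like Rtn4 (0.99) and Dcaf11 (0.99). Procr went with Trim16 and Lin37 (both 0.98), Plau with Tmem44 and Eln (both 0.97), Thbd with Ap4e1 and Papd5 (both 0.95), and F8 with Exoc6 (0.99) and Arhgap1 (0.95). The r of F3 with Rtn4 was 0.85 and that of Thbs1 with Copz2 0.81 without 5L and 7N.

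The rest of the pathway was read from 8 lists of 65 genes, of which 43 reached a group mean above 10 and were tested. None passed the threshold, where 1.52% of all genes tested did, and none had an unadjusted p of at most 0.05 in limma as described, edgeR or DESeq2. In voom 1 did, as after quantile normalization and when all genes above 0 were tested, and 4 did with library quality weights. Their median log2 fold change was 0.08, with 32 of 43 above 0, beside 51.3% of all genes tested. Of 16 clotting factor genes, mostly made by the liver, 3 were tested, and 7 had no read in any library, Fga, Fgg, F9 and F11 among them. Factor V (F5) and the A subunit of factor XIII (F13a1), which platelets also carry, were the clotting factors with the most reads apart from the members. F5 ran from 22.1 in 10N to 125.2 in 6L with agonistic CD40 mAb, and from 9.78 in 5L to 96.9 in 9L with isotype control. High and low libraries thus stood in both groups (exact permutation test p = 0.943). The log2 fold change of F13a1 was 1.00 with a standard error of 0.73, and it was past the threshold as higher without 7N. Its r with the macrophage markers was 0.93 and with the platelet markers 0.84.

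Platelet genes moved with F5. All 11 platelet and megakaryocyte markers, such as Pf4, Ppbp and Itga2b, had reads, and their sum ran from 299 to 1142 with agonistic CD40 mAb and from 115 to 925 with isotype control, highest in 6L and lowest in 5L. Over the 8 libraries the r of F5 with this sum was 0.99, and 0.98 without 5L and 7N. Among the members, Plat had an r of 0.83 with it, Thbs1, also a platelet protein, 0.66, and Procr 0.58, and the other 6 ran from 0.29 for Vwf, which platelets also store, to 0.47 for F3. Without 5L and 7N it was 0.58 for Plat, −0.12 for Thbs1, 0.78 for Procr, 0.60 for Vwf and −0.79 for F3, and −0.28 to 0.28 for the other 4. The platelet sum was 8.06 times as high in 7N as in 5L. The part of platelets in the reads of F5 and of the members was not tested.

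**Figure D5:**
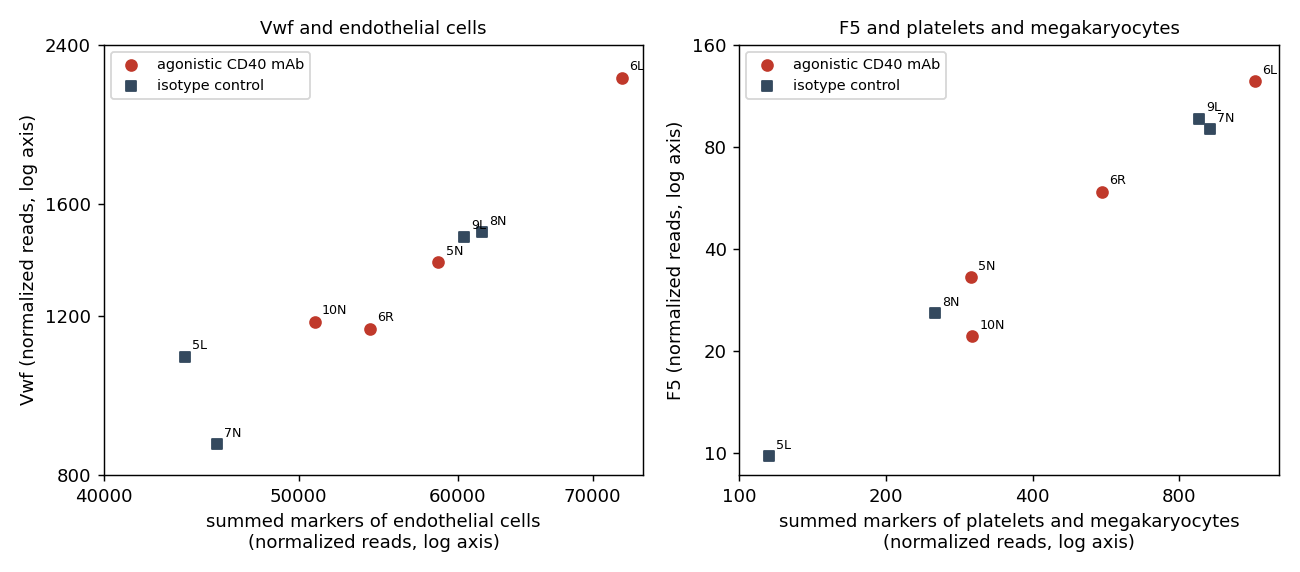
Left, Vwf against the summed endothelial markers, and right, F5 against the summed platelet and megakaryocyte markers, in normalized reads on log axes, with 1 point for each library. Vwf climbs with the endothelial sum (r = 0.94) and F5 with the platelet sum (r = 0.99), and points of both groups are mixed along each.

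In the plasminogen system, where 8 of 11 genes were tested, plasminogen itself (Plg) had 1 read in all libraries. Serpine2, an inhibitor of thrombin and of plasminogen activators, was like Thbs1 lowest in 5L at 367 and highest in 7N at 1494, with a log2 fold change of −0.19, and was past the threshold as lower without 5L. The uPA receptor Plaur had a log2 fold change of 0.17 and Anxa2, which binds plasminogen and tPA at the cell surface, one of 0.02 (95% interval −0.35 to 0.39).

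Of the inhibitors and cofactors of clotting, 4 of 9 were tested. Pros1, which encodes protein S, the cofactor of activated protein C, was at 1394 ± 254 and 1255 ± 406 (SD, n = 4 each), and the log2 fold change was 0.20. Tfpi2, a relative of Tfpi, was at 366 ± 43.0 and 466 ± 177 (log2 fold change −0.27), and Gas6 at 470 ± 145 and 369 ± 182 (log2 fold change 0.45, 95% interval −0.41 to 1.30). Proc, the gene of protein C itself, had 4 reads in all, and antithrombin (Serpinc1) 42. Neither had a group mean above 10, so they were not tested.

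All 4 receptors of thrombin and related proteases were tested. F2r, which encodes PAR1, the main thrombin receptor of endothelium, was lowest in 5L at 802 and highest in 7N at 2239, with a log2 fold change of −0.14. F2rl1, which encodes PAR2, was at 222, 138, 122 and 142 normalized reads in 5N, 6L, 6R and 10N and at 169, 224, 297 and 179 in 5L, 7N, 8N and 9L. Treated libraries other than 5N lay below all isotype controls, but 5N lay among them. Its log2 fold change was −0.48 (standard error 0.23, unadjusted limma p = 0.0648, exact permutation test p = 0.143), and it was past the threshold as lower without 5N. F2rl3, which encodes PAR4, had a log2 fold change of 0.24.

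The genes that carboxylate and export clotting factors were all tested, and none of the 5 passed. Ggcx, the vitamin K-dependent carboxylase, was at 549 ± 37.2 and 531 ± 33.3 (SD, n = 4 each), and the log2 fold change was 0.05 (95% interval −0.20 to 0.29). Lman1 and Mcfd2, which ferry factors V and VIII out of the endoplasmic reticulum, both had a log2 fold change of 0.00. Adamts13, the protease that trims Vwf, was at 50.8 ± 7.09 and 36.4 ± 13.1 (log2 fold change 0.53, 95% interval −0.14 to 1.21).

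Of 10 genes of the Weibel-Palade body, 9 were tested. Angpt2, an angiopoietin stored there, was at 5392 ± 677 and 4878 ± 1523 (SD, n = 4 each), and the log2 fold change was 0.20, and Cd63, a membrane protein of the granule, had one of −0.11. Stxbp5, which binds SNARE proteins of exocytosis, had the lowest p of all 43 genes (unadjusted limma p = 0.0601, exact permutation test p = 0.0571), at a log2 fold change of 0.24.

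The 6 thrombospondin and receptor genes were all tested, with log2 fold changes from 0.07 for Thbs2 to 0.55 for Thbs4. Thbs4 ran from 391 in 5L to 4687 in 7N and was past the threshold as higher without 7N. Over all libraries its means were close, at 2169 ± 544 and 2059 ± 1854, a ratio of 1.05 (exact permutation test p = 0.943). Thbs3 was at 341 ± 108 and 264 ± 95.2, with a log2 fold change of 0.40. Cd36, a thrombospondin receptor, was at 4732 ± 1278 and 4076 ± 1754 (SD, n = 4 each), and the log2 fold change was 0.27. Thbs2 was at 3919 ± 769 and 4058 ± 1789, where the means go the other way from its log2 fold change.

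Among ecto-nucleotidases and KLF factors, Entpd1, which removes the platelet agonist ADP, had a log2 fold change of −0.08 and Nt5e, which makes adenosine, one of 0.22. Klf4, a transcription factor known to drive Thbd, was at 480 ± 99.1 and 369 ± 84.8 (SD, n = 4 each), and the log2 fold change was 0.39 (95% interval −0.05 to 0.82).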

How the data were processed

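RNA of sorted tumor endothelial cells was sequenced from 8 tumors, 4 a group. Per the paper's methods and the labels, the authors demultiplexed reads with CASAVA 1.8, aligned them to mm10 with TopHat2 and Bowtie2 2.2.1, used Partek 6.6 to obtain gene counts and normalized these with DESeq2. The deposited signal is 1 normalized value per gene and library. Divided by the worth of a single read, 99.9% of values came within 0.1 of a whole number, and 2111 genes were at 0 in all libraries, so the flooring, trimming and harvest day correction of the methods are not visible. Whether counting used strand is not given in the sources used here.

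Values were taken as log2(value + 1) and fitted by treatment alone in limma 3.58.1 (R 4.3.3), over the 12969 genes where at least 1 group mean exceeded 10, with p adjusted by Benjamini-Hochberg over all of them. The threshold was a ratio of group means of 1.5 together with an unadjusted p no larger than 0.05. For single genes, group means were set against all 70 assignments of libraries (exact permutation test, two-sided), where p cannot go below 0.0286. The fit was tested on simulated counts. The alternatives were pseudocounts, filters, quantile and TMM normalization, limma settings, recovered reads in voom, DESeq2 1.42.0 and edgeR 4.0.16, and leaving out each library. Leaving out 5L and 7N together and scaling to endothelial markers were chosen after seeing the data. Intervals from reads would cover counting error only, since reads are not independent molecules. The 9 members and the lists were chosen with earlier results of these data known. All 9 members were named, and of each other list the 2 tested genes of lowest p, the 2 of largest mean and any past the threshold. Genes with few or no reads were named after their values were seen. For each member the 2 most similar genes were named. Positions and lengths are from GENCODE M21. A gene of the plasminogen list that the rule names is not reported here.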

Additional observations from a re-analysis of the deposited data

Results flagged for a closer look

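Of 70 groups of libraries examined (35 genes in both groups), 3 had 1 library far from the other 3. Among independent groups chance would flag about 1 in 20. These groups share the same libraries, so the count cannot be judged against that rate. Thbd was high in isotype control library 7N, whose gap to the next library was 0.830 of the group's range. Lman1 was low in isotype control library 5L, with a gap of 0.962 of the range. Nt5e was low in library 6R with agonistic CD40 mAb, with a gap of 0.891 of the range.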

How the results depend on the processing

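No paired analysis was possible because the labels give mouse names, in which only the number 5 occurs in both groups (5N and 5L). The study's methods name harvest day as a source of variance, but the labels give no day for single libraries, so it was not modelled and its part in the results was not tested. No member was called in any alternative other than leaving out 5L, by the ratio of unweighted means. Of 197 refits of single members, 174 kept direction and call, 1 gained a call and 22 turned direction. With library quality weights the log2 fold change was −0.053 for Vwf, 0.0074 for F3 and −0.14 for Plat, and it fell to −0.63 for F8 and −0.23 for Plau, both at an unadjusted p under 0.05, and on that fit's own fold F8 would be called as lower. That of Plat was −0.049 in edgeR, −0.050 in DESeq2 and −0.0085 in voom. Leaving out 1 library in turn gave −0.32 to 0.29 for F3, −0.27 to 0.20 for Plat, −0.17 to 0.052 for Plau, −0.062 to 0.032 for Tfpi, −0.049 to 0.22 for Thbd, −0.55 to 0.11 for Thbs1, −0.49 to −0.10 for F8, 0.041 to 0.33 for Procr and 0.048 to 0.36 for Vwf. Without 5L and 7N it was −0.049 for Vwf, 0.10 for F3, −0.12 for Procr, 0.012 for Tfpi and −0.17 for Plat. In the same fit it was −0.55 for F8, −0.21 for Plau, −0.26 for Thbs1 and 0.13 for Thbd. Scaled to endothelial markers, which moved the median of all genes by −0.16, it was −0.11 for Thbd and −0.13 for Plat, both less negative than that shift. It was more negative than the shift for F8 (−0.45), Thbs1 (−0.37), F3 (−0.23), Plau (−0.20) and Tfpi (−0.19). For Vwf and Procr it stayed above 0, at 0.093 and 0.0061. F8 could not be fitted at a mean above 50.

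Over all genes, 166 were higher and 31 lower, and with each library left out 124 to 234 and 27 to 123 (123 without 5L, 52 without 9L). Testing all genes above 0 gave 331 higher and 93 lower. The number lower was 13 at a mean above 50, 57 without the trend, 70 with weights, 47 in edgeR, 58 in DESeq2, 91 in voom, 56 without 5L and 7N and 54 scaled to endothelial markers. Members past the threshold numbered 0 to 1 and other pathway genes 0 to 2 with each library left out, and scaling to endothelial markers called 1 pathway gene, F2rl1, as lower, in the direction of its shift of all genes. Per kilobase of the longest transcript, with the same reads divided by another length, Vwf came to 153, Procr to 430.0, Tfpi to 237 and Plat to 280. The cause of the changes in fold changes and in numbers of genes past the threshold was not tested. F8 had 10 reads in 5L, and the part of depth in its spread was not tested.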
